A study of Caenorhabditis elegans with 2 samples.

Results

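The regions described here were the autosomal intronic binding peaks of ELT-1 that lay outside promoters. A peak was counted if it stood in the authors' list of reproducible peaks (the list that passed their irreproducible discovery rate, IDR, threshold) on chromosomes I to V and if its summit met 3 conditions. The summit lay in the body of a protein-coding gene, in no protein-coding exon, and outside every promoter window, which was taken to reach 1000 bp before and 200 bp beyond every start of a protein-coding transcript. The rule found 285 peaks of the 1440 reproducible peaks on the autosomes, or 14.92% of the whole reproducible list, X chromosome included. The autosomes also held 646 promoter peaks, 461 distal intergenic peaks and 48 exonic peaks outside promoters.

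ELT-1 is a GATA-family transcription factor of Caenorhabditis elegans. It is required in the embryo to specify the epidermis, and later for the upkeep of epidermal and seam cell fates. GATA factors bind short DNA words built around the core GATA, and long introns of worm genes can hold enhancers as well as alternative promoters.

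The study used chromatin immunoprecipitation with sequencing (ChIP-seq) on whole worms at the L3 larval stage, with both sexes pooled. The strain was OP354, genotype unc-119(tm4063) III; wgIs354, in which an integrated transgene carries elt-1 fused to eGFP. There was a single group of 2 biological replicates, with no other stage, genotype or treatment, and the control named in the labels was not analysed here. Larvae were pooled whole, so binding in a few cells and weak binding in many cells cannot be told apart. The deposited lists gave a signal value for each peak (unit not stated), and the read depth behind it is unknown.

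Windows that reach 50 bp to each side of the summits of 7 strong peaks show the DNA that the results below turn on. All are from the WBcel235 assembly (ce11), plus strand, 5′ to 3′. In the first 5, capitals mark a GATA site, meaning AGATAA or AGATAG or TGATAA or TGATAG or the reverse complement of one of them. The pair from elt-1 come from the gene that encodes the factor, the window from mbk-2 holds a pair of sites, and those from unc-5 come from separate introns of a single host.

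elt-1 intron, stronger peak, chrIV:9618191-9618291: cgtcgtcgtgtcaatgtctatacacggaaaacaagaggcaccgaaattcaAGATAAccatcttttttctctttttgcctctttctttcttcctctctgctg

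elt-1 intron, weaker peak, chrIV:9617524-9617624: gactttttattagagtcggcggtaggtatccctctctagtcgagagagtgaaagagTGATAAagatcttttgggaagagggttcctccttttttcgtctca

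mbk-2 intron, chrIV:13014128-13014228: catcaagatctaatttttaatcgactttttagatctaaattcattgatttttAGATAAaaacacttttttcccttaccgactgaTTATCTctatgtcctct

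unc-5 intron, first peak, chrIV:5506755-5506855: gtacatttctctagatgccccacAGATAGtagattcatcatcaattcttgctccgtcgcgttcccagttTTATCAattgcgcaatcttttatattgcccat

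unc-5 intron, second peak, chrIV:5519197-5519297: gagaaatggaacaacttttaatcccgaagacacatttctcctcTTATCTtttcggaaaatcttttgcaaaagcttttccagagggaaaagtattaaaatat

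The other two windows hold no GATA site. They are shown because the members without a site include some of the strongest. In them capitals mark the word GAGAGA or its reverse complement TCTCTC, including overlapping copies. Most members without a site lacked this word too: 41 held it and 128 did not.

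egl-18 intron, chrIV:1911446-1911546: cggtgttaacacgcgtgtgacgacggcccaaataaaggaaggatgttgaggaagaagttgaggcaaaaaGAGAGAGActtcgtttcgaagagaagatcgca

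pqn-41 intron, chrIII:1925370-1925470: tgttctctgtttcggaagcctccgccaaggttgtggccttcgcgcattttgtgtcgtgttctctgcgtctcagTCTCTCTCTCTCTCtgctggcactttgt

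The intronic peaks had a median signal close to those of the distal intergenic and promoter peaks on the autosomes. Their signal ran from 27.74 to 342.7 with a median of 42.11, against a median of 41.6 for distal intergenic peaks and 39.72 for promoter peaks. The highest signals lay further apart, at 472.5 for distal intergenic peaks and 1858 for promoter peaks. All these classes were cut at the same limit of the list, which draws their medians together. The strongest intronic peak stood at rank 15 of the whole list, and the median rank was 896. The peak nearest the limit of the list from inside, in cest-24, had a signal of 27.74, and the strongest intronic peak outside the list, in hot-2, had 27.52. Near the edge of the promoter windows, the peak in nhr-49 (signal 70.46) lay 1 bp outside and a peak in pie-1 (signal 63.06) lay 9 bp inside. In all, 23 members lay within 100 bp of a promoter window, and 114 intronic autosomal summits of the list lay inside one and were left out.

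GATA sites were concentrated at the summits of the intronic peaks. One of the 4 words lay within 50 bp of the summit in 116 of 285 members, or 40.7% (95% exact interval 34.95 to 46.65). The comparison set was 6277 sub-threshold intronic peaks, chosen by the same location rule from the authors' pooled list and more than 500 bp from any reproducible summit. The authors labelled that list as peaks and background, so these regions, called peaks here, can include background as well as weak binding. Their signal had a median of 6.899, and 18.54% of them held a site. The odds ratio was 3.015 (Fisher's exact test, two-sided, adjusted p = 1.97e-16 over 6 comparisons of the site share). Of all intronic positions eligible under the rule, 17.82% had a site within the same distance, so the sub-threshold peaks lay near the level of intronic DNA as a whole. The members were richer in G and C, with a median GC content of 41.58% against 32.67% in the sub-threshold peaks. Within 5 strata of GC content the odds ratio was 3.454.

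Each member also served as its own control. Windows of the same width centred 500 bp to the left of the summit held a site in 24.21% of members, and those 500 bp to the right in 21.75%. A site at the summit but not in the left flank was found in 82 members and the opposite in 35 (exact McNemar test, adjusted p = 3.30e-05). For the right flank the counts were 97 and 43 (exact McNemar test, adjusted p = 1.74e-05). Across 20 bp bins, sites reached 13.33 per 100 members in the bin just right of the summit, where the sub-threshold peaks had 4.62. In the bin from 100 to 120 bp the values were 4.211 and 4.365.

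**Figure D1:**
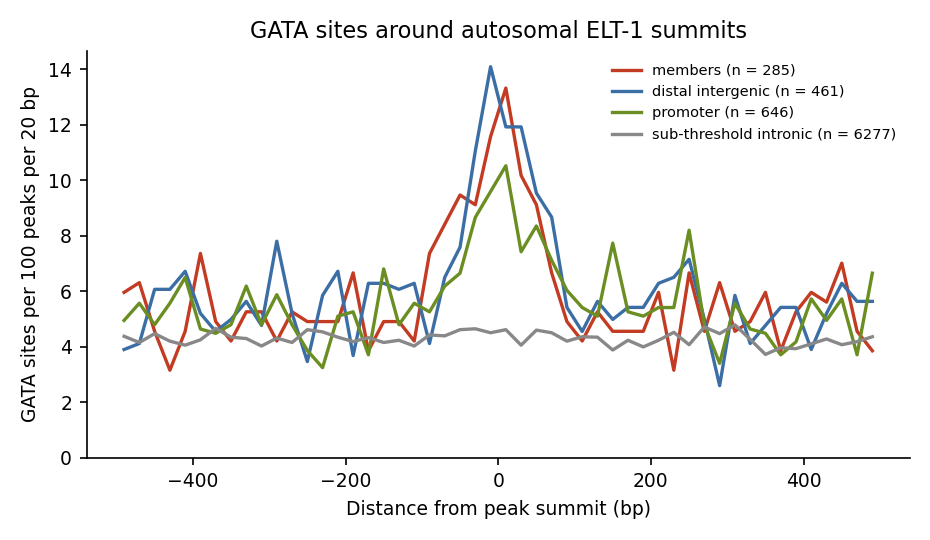
GATA sites per 100 peaks in 20 bp bins (vertical axis) against the distance from the summit in bp (horizontal axis), for members, distal intergenic peaks, promoter peaks and sub-threshold intronic peaks of the autosomes. The 3 reproducible classes peak at the summit, where the members reach 13.33, and the sub-threshold line stays near 4.62.

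The site share of the members was compared with that of the other reproducible peaks. Distal intergenic peaks held a site in 45.55%, and the difference from the members did not pass the test (Fisher's exact test, odds ratio 0.8204, adjusted p = 0.1977). Promoter peaks held one in 31.73% (Fisher's exact test, odds ratio 1.477, adjusted p = 0.01327). That second difference was lost within GC strata, where the odds ratio was 1.224, and promoter peaks had a median GC content of 44.55%. It was also lost when the strongest peaks of either replicate alone took the place of the reproducible list, with odds ratios of 1.266 and 1.236, among the 955 strongest peaks (1.283) and with a wider promoter window (1.125).

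The 4 words did not contribute equally. AGATAA was found in 67 members, 23.51% against 6.325% of sub-threshold peaks (Fisher's exact test, odds ratio 4.552, adjusted p = 5.78e-19 over the 4 words). AGATAG was found in 20 members, 7.018% against 2.915% (Fisher's exact test, odds ratio 2.513, adjusted p = 0.001171). With a wide promoter window, from 2000 bp upstream to 500 bp downstream, the call for AGATAG was lost (odds ratio 2.05). TGATAA was found in 31 members, 10.88% against 7.918%, and TGATAG in 13, 4.561% against 3.091%, and neither difference passed Fisher's exact test (adjusted p = 0.1 and 0.1642). Within GC strata the odds ratio of TGATAA was 1.97 and passed, and with sites within 100 bp it was 0.9664 and did not. AGATAA was the only one of the 4 words in 58 members. Among all eligible intronic positions AGATAA lay within 50 bp of 5.612%, AGATAG of 2.287%, TGATAA of 8.323% and TGATAG of 3.121%, so the commonest word at the summits was not the commonest in intronic DNA.

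**Figure D2:**
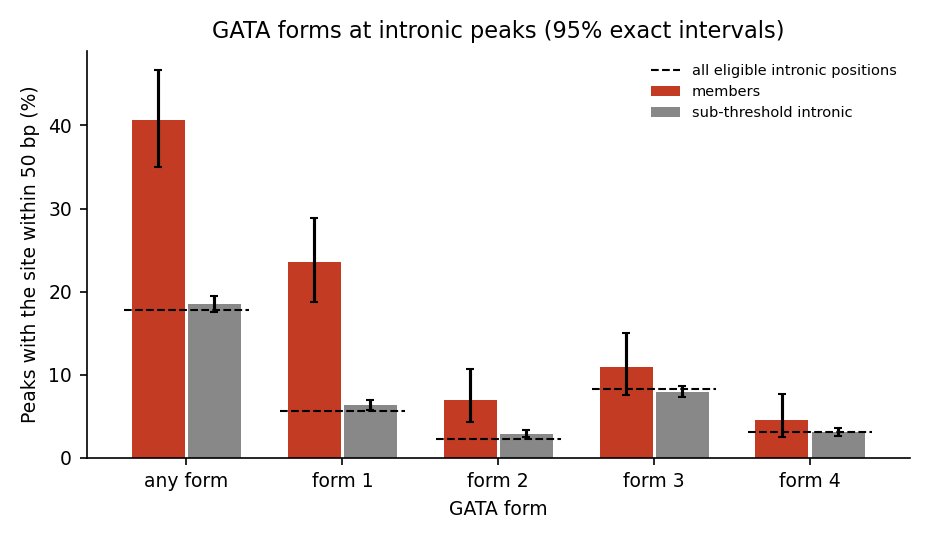
Percentage of peaks with a GATA word within 50 bp of the summit (vertical axis), for any word and for each of 4 (form 1 is AGATAA, form 2 is AGATAG, form 3 is TGATAA, form 4 is TGATAG), in members and sub-threshold intronic peaks. Bars start at 0 and lines on them are 95% exact intervals, which cover counting error over peaks only. Form 1 stands at 23.51% in members against 6.325%, and the dashed lines give the share of all eligible intronic positions.

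Sites lay close to the summit and had no preferred strand. The nearest site centre had a median distance of 16.5 bp, with 65 members within 20 bp and 34 within 10 bp. Of the sites in the windows, 74 read AGATAA or another of the 4 words along the strand of the host gene and 71 along the other. A single site was found in 90 members and 2 or more in 26 members, or 9.123%, where 2.613% of sub-threshold peaks had 2 or more. The highest number was 5.

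The site share was higher among stronger members, by a call that did not hold under several settings. From the 72 strongest members down through 3 groups of 71, the share was 51.39%, 42.25%, 40.85% and 28.17%. Between the stronger 143 and the weaker 142 members the shares were 46.85% and 34.51% (Fisher's exact test, odds ratio 1.673, adjusted p = 0.0485). The call was lost without the peaks within 20 kb of elt-1 and unc-119 (odds ratio 1.561), with 1 peak per host (1.494), among the 955 strongest reproducible peaks (1.581), with the wide promoter window (1.846) and with sites within 25 bp (1.591). Over these 5 settings the adjusted p from Fisher's exact test lay between 0.06273 and 0.2275. Members with a site had a median signal of 47.96 and those without one 40.35. The strongest member of all, in fasn-1, was among the 169 members without a site.

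A scan of all hexamers (each counted with its reverse complement, within 50 bp of the summit) was run against the sub-threshold peaks. By Fisher's exact test with Benjamini-Hochberg adjustment, 310 hexamers, 14.9% of those tested, were more frequent in members, and 140, or 6.73%, were less frequent. Of the 48 hexamers that contain GATA on either strand, 14 were called higher. AGATAA had the lowest p of those called higher. It was followed by GAGAGA, found in 22.46% of members against 6.659% (Fisher's exact test, odds ratio 4.059, adjusted p = 1.71e-14). GATAAG, which overlaps AGATAA, stood at 15.79% against 3.441%. The others with the lowest p were AGAAGA at 24.56% against 8.412%, AGAGAG at 19.3% against 5.512%, and GAGACG at 13.68% against 2.772%. AGAGAG overlaps GAGAGA, so these counts share windows.

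The hexamers called lower with the lowest p were made of A and T alone. AAAATT stood at 11.58% of members against 57.83% of sub-threshold peaks, and AAATTT at 5.965% against 38.08%. AAAAAT stood at 24.56% against 62.42%, TTAAAA at 7.719% against 36.45%, AAATTA at 4.561% against 30.59% and TAAAAA at 15.44% against 42.23%. Of the 140, 33 held no G or C. Within GC strata the scan called 114 hexamers higher, 103 of them shared with the first scan, and 34 lower, 33 of them shared. GAGAGA kept an odds ratio of 2.265 there and passed, and TAAAAA, with 0.6287, no longer did.

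No hexamer separated the intronic members from the distal intergenic reproducible peaks. Of 1903 hexamers that could be tested, 0 passed Fisher's exact test after adjustment in either direction, and 45 were higher and 40 lower at an unadjusted p under 0.05. The word GAGAGA, for example, was present in 26.68% of distal intergenic peaks and 22.91% of promoter peaks.

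The GATA and GAGAGA words split the members into 4 sets. A GATA site without GAGAGA was found in 93 members with a median signal of 47.17. GAGAGA without a GATA site was found in 41, with a median of 41.77, and both words in 23, with a median of 49.79. The remaining 128 members, or 44.91%, had neither, and their median was 39.65. The fasn-1 peak, the strongest member of all, was among them. The strongest member with GAGAGA alone was the egl-18 peak printed above.

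The intronic peaks favoured first introns and long introns. A first intron held 145 of 285 summits, 50.88% against 33.12% of sub-threshold peaks (Fisher's exact test, odds ratio 2.091, adjusted p = 2.46e-09 over 4 features). First introns made up 27.75% of eligible positions. An intron over 1000 bp held 80.35% of members against 50.44% (Fisher's exact test, odds ratio 4.018, adjusted p = 6.20e-24), and such introns made up 47.67% of eligible positions. Members lay in introns with a median length of 3170 bp, and sub-threshold peaks in introns of 1014 bp. The median distance to the nearest transcript start of the host, taken without its sign, differed little, at 1824 bp and 1762 bp. Some first-intron members lay upstream of that start, for example at -2099 bp in F53E4.1 and -1950 bp in egl-18. Members lay in longer hosts, with a median length of 11313 bp against 7845 bp. The number of transcripts per host was not controlled for. Among introns over 1000 bp alone, the first-intron share was still higher in members, at 59.83% against 44.5% (Fisher's exact test, odds ratio 1.857, adjusted p = 9.71e-06). The GATA site share was 40.69% for members in first introns and 40.71% for those in other introns.

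Annotated non-coding genes and promoter binding at the host also went with the intronic peaks. A summit lay inside a non-coding gene in 24 members, 8.421% against 2.39% of sub-threshold peaks (Fisher's exact test, odds ratio 3.756, adjusted p = 3.91e-07). Of these members, 20 lay in genes of the class ncRNA, 3 in antisense RNA genes and 2 in lincRNA genes, and a summit could lie in more than 1 class. Their median GC content was 50%, and 25% of them held a GATA site. Within GC strata the odds ratio was 1.723 and still passed. Among the 227 host genes, 52, or 22.91%, also had a reproducible peak in their own promoter window, against 6.202% of 3257 genes that hosted sub-threshold peaks only (Fisher's exact test, odds ratio 4.494, adjusted p = 1.31e-14). Within 5 strata of eligible intronic length the odds ratio was 4.301.

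**Figure D3:**
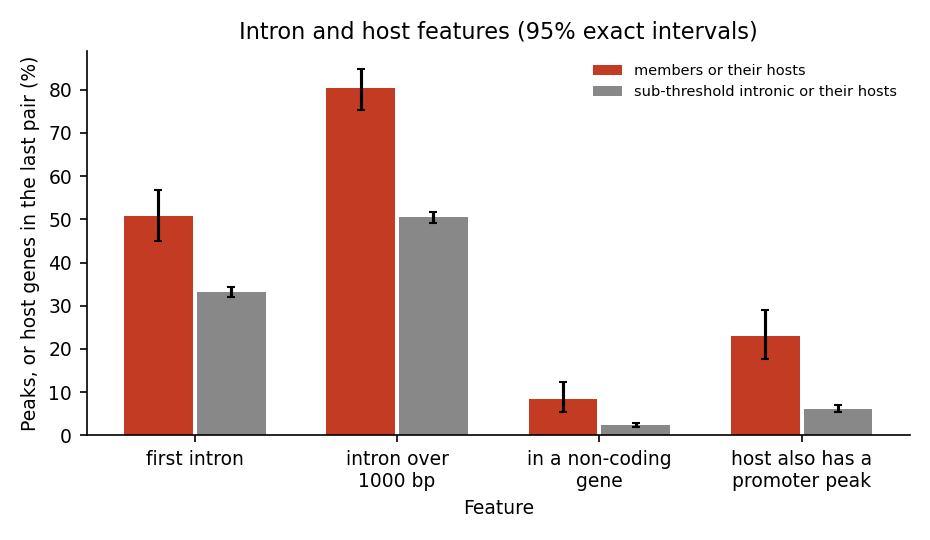
Percentage of peaks, or of host genes in the last pair (vertical axis), with each of 4 features, in members and sub-threshold intronic peaks. Bars start at 0 and lines on them are 95% exact intervals. The members stand higher in each pair, for example 80.35% against 50.44% for introns over 1000 bp.

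The peaks were spread over all autosomes. Chromosome I held 66, chromosome II 61, chromosome III 55, chromosome IV 59 and chromosome V 44. Per Mb of eligible intronic DNA the density was highest on II, at 16.1, and lowest on V, at 9.131, around 12.57 for all autosomes. The difference between a chromosome's share of the members and its share of the sub-threshold peaks did not pass the test on any of the 5 (Fisher's exact test, lowest adjusted p = 0.5094).

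The members were also followed in the list of each replicate. A region with its summit within 100 bp was listed for 267 of 285 members in replicate 1 and for 283 in replicate 2. Among the matched, the signal had a median of 16.74 in replicate 1, with a range of 2.577 to 159.9, and a median of 28.29 in replicate 2, with a range of 6.156 to 195. How the 2 lists were scaled is not stated, so these levels were not compared. Of each replicate list, as many of the strongest regions were taken as the reproducible list holds, and among these 202 members were found in replicate 1, 236 in replicate 2, 160 (56.14%) in both and 7 in neither. The share found in both was 57.48% for distal intergenic peaks and 53.87% for promoter peaks, and neither difference from the members passed the test (Fisher's exact test, adjusted p = 0.7609 for each). Over the 266 members listed in both, the log2 signals of the replicates correlated with r = 0.49 (Pearson) and rho = 0.45 (Spearman). These peaks share libraries and were selected for reproducibility, so the values are a description. Members among the strongest of both held a GATA site in 50.62%, against 30.95% of those in replicate 1 only and 26.32% of those in replicate 2 only. These sets also differed in strength, with median pooled signals of 54.7, 30.61 and 32.77 in the same order. Site share was not compared at equal signal. The share among the strongest of both was 48.97% in first introns and 63.57% in other introns. It was 41.67% inside non-coding genes and 57.47% outside them, where the median signals were 33.12 and 43.53. For introns over 1000 bp it was 57.21%, against 51.79% for shorter ones. Hosts with a promoter peak gave 58.9% and those without one 55.19%.

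**Figure D4:**
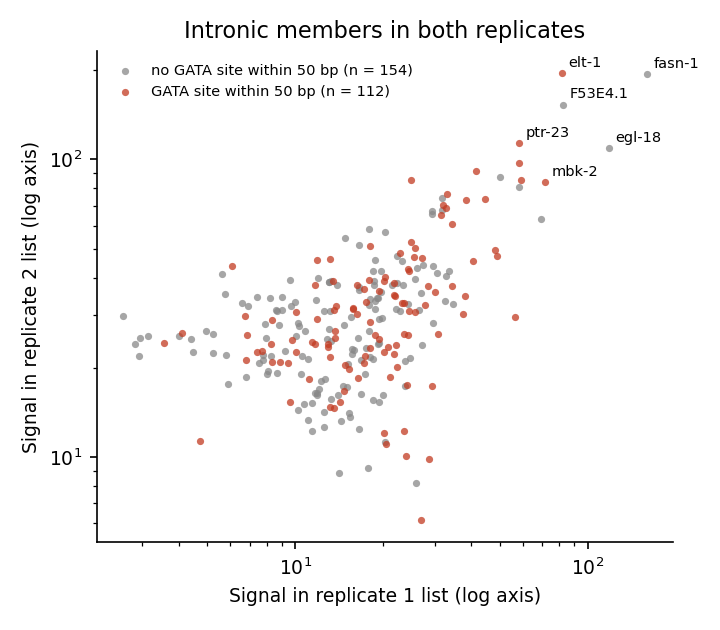
Signal of each member in the replicate 2 list (vertical log axis) against its signal in the replicate 1 list (horizontal log axis), for the 266 members listed in both. Red points have a GATA site within 50 bp and grey points have none, and the 6 strongest members are named by host gene. The strongest stand high in both lists, and the weaker ones scatter widely.

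The 285 peaks fell in 227 host genes, 1.53% of the 14851 autosomal protein-coding genes with eligible intronic DNA. A single member was found in 182 hosts, 2 members in 31, 3 in 11 and 4 in 3. Hosts had a median of 4914 bp of eligible intronic DNA against 648 bp over all eligible genes. Of the 3712 genes with the most such DNA 193 were hosts, or 5.199%, and of the 3713 with the least 0 were. Long genes were therefore more often hosts, and each gene list with a host is given below with the number of members that length alone would give. That number applies the density over all autosomes, 12.57 per Mb, to the eligible length of the list. It makes no allowance for the excess of members in long introns and first introns.

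The strongest intronic peak lay in fasn-1, which encodes fatty acid synthase. Its signal was 342.7 in the pooled list, 159.9 in replicate 1 and 192.9 in replicate 2. The peak was in the first intron, 457 bp from the nearest start, and the gene also had a promoter peak. The third strongest lay in a first intron of F53E4.1, with 234.7, 82.62 and 152.7 in the same order. That intron, 9221 bp long, held a second member with 115.8, 44.66 and 73.73. All 3 of these peaks were high in both replicates, and only the last of them held a GATA site.

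GATA factor genes held 5 members. Of 11 listed factors 6 had eligible autosomal introns, and 2 of these were hosts (33.33%, against 1.53% of all eligible genes), where 0.2322 members were expected from their eligible length. In elt-1 both members lay in an intron of 1091 bp. The stronger, at chrIV:9618110-9618393, had a signal of 275.6 in the pooled list, 82.03 in replicate 1 and 195 in replicate 2. Its AGATAA was centred 2.5 bp from the summit. That summit stood at -1097 bp (upstream) from the nearest elt-1 transcript start. It was thus just outside the promoter window of 1000 bp and inside the wide window of 2000 bp. The weaker, at chrIV:9617419-9617680, had 142.9, 59.39 and 85.02, with TGATAA centred 8.5 bp from the summit. The gene also had a promoter peak. The transgene carries elt-1 sequence, and reads from it and from the endogenous locus cannot be told apart in these lists.

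The other host was egl-18, a GATA factor gene active in seam cells. Its strongest member, at chrIV:1911272-1911661, had a signal of 229.1, with 118.3 in replicate 1 and 109.3 in replicate 2, and held no GATA site. The second, at chrIV:1915008-1915199, had 108.4, 38.29 and 73.25 and held AGATAG. The third, with a signal of 27.75, stood near the limit of the list and held 2 sites. No member was found in elt-6, elt-7, end-1 or end-3. The introns of med-2 held no eligible position, and elt-2, elt-3, elt-4 and med-1 are on the X chromosome, outside the rule.

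Regulators of epidermal and seam cell fate were hosts in 5 of 13 eligible cases (38.46%), with 9 members where length alone gave 0.7109. Beside elt-1 and egl-18, a peak of signal 47.13 lay in bro-1, which encodes the partner of the RUNX factor RNT-1. Its summit stood 8 bp from an exon, the nearest of any member, and its signal was 7.391 in replicate 1 and 34.62 in replicate 2. In rnt-1 both members, with signals of 33.67 and 31.67, lay in 1 intron of 7206 bp, each held AGATAA, and each lay in an annotated ncRNA gene. A peak of 30.72 lay in ceh-16, the Engrailed homologue, and was listed in replicate 2 only. These 3 genes had signals well below the strongest members of elt-1 and egl-18. Of 9 eligible genes listed as epidermal markers, 3 were hosts (33.33%, against 1.53% of all genes), with 6 members where length gave 0.6405. Of these hosts 2 were elt-1 and egl-18 again, with 5 of the 6 members, and the third was vab-10, the spectraplakin of epidermal attachments, with a signal of 40.35. It was also the single host of 7 eligible genes of epidermal attachment, where length gave 0.8426 members.

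Genes of molting and developmental timing were hosts in 2 of 13 cases, with 4 members against 0.5881 by length. The period homologue lin-42, which paces the molts, held 3 members with signals of 61.3, 42.11 and 28.6, none with a GATA site. The weakest of them was not listed in replicate 1. A peak of 45.6 with AGATAG lay in myrf-1, which encodes a membrane-bound transcription factor needed for molting, and it ranked higher in replicate 1 (signal 29.33, rank 296) than in replicate 2 (signal 17.36, rank 2128). Of 5 eligible heterochronic genes lin-42 was the single host (20%), with its 3 members where length gave 0.3673.

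Axon guidance genes held 10 members in 4 of 14 eligible genes (28.57%), where length alone gave 1.676. The netrin receptor gene unc-5 had 3. The first, at chrIV:5506709-5506913, had a signal of 105.7, with 32.69 in replicate 1 and 68.84 in replicate 2. The second, at chrIV:5519175-5519344, had 99.63, 31.66 and 65.35, and both had GATA sites, while the third, with 40.32, had none. In ptp-3, which encodes a LAR-type receptor phosphatase, the member had a signal of 87.62 and held AGATAA. The Eph receptor gene vab-1 held 2 members, at 71.11 and 62.75. The semaphorin gene smp-1 held 4, from 28.2 to 57.97, of which 2 had a GATA site.

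Nuclear hormone receptor genes were hosts in 6 of 242 eligible cases (2.479%), close to the 1.53% of all genes, with 8 members against 3.581 by length. The strongest was in nhr-43, with a signal of 113 in the pooled list, 24.99 in replicate 1 and 85.04 in replicate 2, and 2 GATA sites. It was followed by nhr-19 with 70.99, nhr-49 with 70.46 and nhr-153 with 58.12. Of 66 eligible Hedgehog-related and Patched-related genes 2 were hosts (3.03%, against 1.53% of all genes), with 2 members where length gave 1.391. They were ptr-23 with a signal of 174.4 and ptr-12 with 68.68. The ptr-23 member was the fifth strongest, at 58.31 in replicate 1 and 113.7 in replicate 2, with a site centred 0.5 bp from its summit.

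Other lists gave a single host with a single member each, near the number that length alone gave. Of 10 eligible genes of apical junctions the host was hmr-1, a cadherin gene, with a signal of 109.9 and AGATAG, where 1.63 members were expected by length. Of 20 eligible Wnt pathway genes it was cam-1, the ROR receptor gene, with 37.41, where 0.9107 were expected. Of 95 eligible collagen genes it was col-99, which encodes a transmembrane collagen, with 44.22 (1.053% of the list, below the 1.53% of all genes), where 0.5004 were expected. Of 45 eligible homeobox genes named ceh it was ceh-16 (2.222%), where 0.9474 were expected. Of 17 eligible neuronal genes it was unc-119 (5.882%), where 1.027 were expected. Its signal was 51.72 in the pooled list, 16.27 in replicate 1 and 37.93 in replicate 2, and the transgene may carry a rescuing copy of that gene. No host was found among 8 eligible Hox genes and cofactors, 8 of the DBL-1 pathway, 10 of the apical matrix, 8 of the basement membrane, 13 of body wall muscle, 7 of the intestine, 5 of the pharynx or 15 of the germline. For these the number expected by length was between 0.08737 and 1.125 members, so a count of 0 says little at this number of peaks.

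Several hosts held clusters of members. In pqn-41, which encodes a glutamine-rich protein, all 4 members lay in 1 intron of 7776 bp, with signals of 103.4, 86.91, 78.78 and 53.58, and none had a GATA site. In hlh-30, the homologue of the lysosomal regulator TFEB, the 4 signals ran from 28.16 to 59.72, and 1 member had a site. In vhp-1, a MAP kinase phosphatase gene, a member of 93.17 with TGATAA stood beside weaker ones of 30.59 and 28.52 in the same intron. In daf-16, the FoxO factor gene, the signals were 41.97, 33.91 and 32.45, and in zfp-1, the AF10 homologue, they were 71.26, 61.76 and 41.84. The remaining hosts with 3 members were cwf-19L2 (highest signal 71.09), akap-1 (55.81), ppfr-1 (52.45), ccch-1 (42.15) and sms-1 (38.85). Over all hosts, 53 members lay within 2000 bp of another. Members of 1 host are not independent of each other, and with the strongest peak of each host alone the site comparison with sub-threshold peaks had an odds ratio of 3.307.

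**Figure D5:**
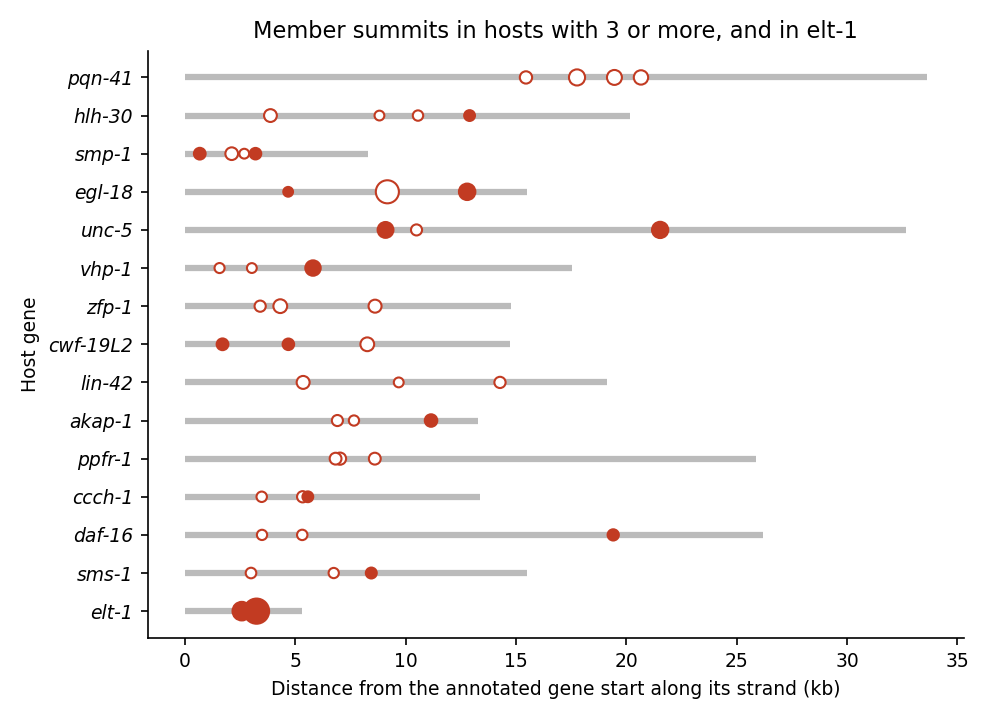
Position of member summits along each host gene with 3 or more members, and along elt-1 (horizontal axis, kb from the annotated gene start along its strand; vertical axis, host gene). The grey line is the gene body, the area of a circle rises with the pooled signal, and filled circles have a GATA site within 50 bp. The 4 open circles of pqn-41 lie in 1 stretch, and elt-1 carries 2 large filled circles.

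The other hosts among the 12 strongest were of varied kinds. In mbk-2, a DYRK-family kinase gene, the member had a signal of 155.8, with 71.67 in replicate 1 and 83.8 in replicate 2, and its 2 sites are the pair printed above. In gpdh-2, which encodes a glycerol-3-phosphate dehydrogenase, the signal was 153.4, and TGATAA was centred 36.5 bp from the summit. In spsb-1 it was 136 with AGATAA, and in mtm-3, a myotubularin-family gene, 135.3 with no site. The genes F55A11.6 and Y111B2A.12 held members of 129.6 and 125, both without a site, and both also had a promoter peak.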

How the data were processed

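The authors deposited narrowPeak lists in the ce11 build: a list of 1910 reproducible (IDR) peaks, a pooled list of 30000 regions, and lists of 29029 and 30000 regions for replicates 1 and 2. Which aligner, peak caller and IDR threshold were used, and how the control entered, is not given in the sources used here. The deposited lists hold a signal value per peak, never negative, whose scale is not stated and which is compared only within a list, and a −log10 q-value in the column the narrowPeak format keeps for it, which was not tested. The pooled list, and so the signals called pooled here, has no replicate error. The deposited ce10 lists were not used.

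Summits were placed on Ensembl release 115 gene models (WBcel235), and sequence was read from the RefSeq genome of that build. The sub-threshold set was taken from the pooled list, which the authors labelled as peaks and background for the IDR step. Shares were compared with two-sided Fisher's exact tests and paired flanks with exact McNemar tests, with Benjamini-Hochberg adjustment within each family at 0.05. GC strata used the Cochran-Mantel-Haenszel test. A hexamer was tested if at least 10 windows held it. Intervals are Clopper-Pearson 95% and cover counting error over peaks only. Peaks are not replicates: the p-values describe these lists, not variation between worms. Python 3.11.15 with SciPy 1.17.1, pandas 2.3.3, NumPy 2.4.6, statsmodels 0.14.6 and matplotlib 3.10.9 was used, and the scripts were tested on simulated data.

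The members, the 23 gene lists and the tests were chosen with earlier results of these data known. Genes named were the hosts of the 12 strongest members, hosts with 3 or more members, up to 4 hosts per list, all GATA factors and unc-119, and of the hexamers the 6 with the lowest p in each direction. ceh-16, cest-24, hot-2 and pie-1 were named beside these as counts or edges of the rule. Alternatives were the replicate lists alone, a stricter list, narrow and wide promoter windows, other exon sets, site windows, length limits and match distances, the transgene loci left out, 1 peak per host, and GC strata. The hexamer scans within GC strata and against distal peaks, and the strata for introns, hosts and non-coding genes, were added after seeing the data.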

Additional observations from a re-analysis of the deposited data

How the results depend on the processing

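Beside the values in the report, 213 of the values recomputed under other settings kept their side of the test where there was one. Some comparisons that had not passed changed direction and still did not pass. The odds ratio for sites against distal intergenic peaks went from 0.8204 to 1.015 with sites within 25 bp. For the share of members on chromosome I it went from 1.081 to 0.9547 without replicate 1. The excess of sites over promoter peaks was among the least stable. Its odds ratio no longer passed without replicate 1 or 2 (1.236 to 1.266), in the 955 strongest peaks of the list (1.283), with the wide promoter window (1.125) or within GC strata (1.224). The excess in the stronger members over the weaker was lost in those 955 (1.581), with the wide window (1.846), without the transgene loci (1.561), with 1 peak per host (1.494) and with sites within 25 bp (1.591). The odds ratio for AGATAG was 2.05 with the wide window and did not pass. TGATAG passed without replicate 2 (1.982) and within 100 bp (1.613), and TGATAA in the 955 strongest (1.983) and within GC strata (1.97). Within 100 bp the odds ratio of TGATAA was 0.9664. Those 955 held 151 members. The scan then called 164 hexamers higher and 70 lower, within 25 bp 162 and 80, within GC strata 114 and 34, and against distal peaks 0 and 0. For the smaller sets and windows, fewer peaks or bases entered the test; otherwise the cause was not tested. Counting exons of non-coding genes as exons made the non-coding overlap 0 by construction.

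With the strongest regions of 1 replicate alone in place of the reproducible list, the number of members was 281 to 295, and the odds ratio was 2.61 to 2.644 for sites against sub-threshold peaks, 1.952 to 1.961 for first introns, 3.855 to 4.109 for long introns, 2.958 to 4.267 for non-coding overlap and 3.691 to 4.414 for promoter peaks at hosts. For AGATAA it was 3.604 to 3.727, and for TGATAG 1.751 to 1.982. The scan called 279 to 294 hexamers higher and 111 to 151 lower. No paired analysis was possible because the study has a single group of 2 replicates.

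The lists give no read depth, so weak peaks cannot be told from absent ones, and the 2 replicates allow no test of variation between worm cultures. Binding outside the reproducible list was not examined peak by peak.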
